A study of Mus musculus with 6 samples.

Results

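The genes described here are 8 of the 26789 genes in a table of microglial RNA: Tyrobp, Trem2, Hcst, Syk, Plcg2, Inpp5d, Btk and Vav1. They are TREM2, the adaptors it can sit beside and the enzymes that act next to them. Rows were matched to these symbols through their Ensembl identifiers, and all 8 were found. They were chosen by the Tyrobp values, which are 0 in every library of 1 diet group, so the diet difference of Tyrobp is given as a description only. Tyrobp stayed among the genes fitted for the counts over all genes, where its place is not a test result. Hcst was included as the neighbouring gene.

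TREM2 is a microglial surface receptor for lipids and lipoproteins that has almost no signaling part of its own. It pairs in the membrane with DAP12, the product of Tyrobp, whose cytoplasmic tail carries an immunoreceptor tyrosine-based activation motif (ITAM). When both tyrosines of the motif are phosphorylated by Src family kinases, the kinase Syk docks there and passes the signal to the lipase PLC-gamma 2 (Plcg2), the kinase Btk and the exchange factor Vav1, while the lipid phosphatase SHIP1 (Inpp5d) dampens it. The pathway is known in microglia for survival, phagocytosis and the response to damaged lipid.

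The microglia, immune cells that live in the brain, came from the rostral nucleus of the solitary tract, the first taste relay of the brainstem, of P15 mice. In the controls (3 libraries) the dams received the control diet, and in the E3–E12 diet mice (3 libraries) they received a low-sodium diet between embryonic days 3 and 12. Each library held the pooled tissue of 6 littermates, so 1 litter stands behind each library, and no genotype or strain label separates the groups. The study's methods describe sorting with magnetic beads against CD11b and amplification of the RNA before sequencing, whereas the series description names laser microdissection, so the isolation of the cells is not certain. Values of replicates 1, 2 and 3 are given in that order throughout.

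The authors' normalized counts summed to between 9407141 and 17204618 per library, and between 3459 and 10640 genes of the table were at 0 in a library. Control replicate 2 had both the highest total and the most genes at 0. All 12 microglia markers were above 0 in every library, and their summed level ran between 110362 and 535198 normalized counts in controls and between 106568 and 349533 in E3–E12 diet mice. Summed choroid plexus markers ran between 566 and 18952 in controls and between 58.0 and 40173 in E3–E12 diet mice, and the other marker lists overlapped between the groups, apart from 5 B-cell markers (194 to 257 against 260 to 383), of which Ms4a1 was at 0 in 3 libraries or more. Because these are bulk samples, fewer cells of a type and less RNA per cell cannot be told apart.

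Tyrobp lies on chromosome 7 (GRCm38 chr7:30413760-30417585, plus strand) and Hcst, on the minus strand, at chr7:30417712-30419854. The genes end tail to tail with 126 bases between them and share no exonic base. Hcst encodes DAP10, an adaptor that carries a motif for phosphatidylinositol 3-kinase (PI3-kinase) in place of an ITAM. The coding stretches that hold the signaling motifs are shown because they differ in kind between the ITAM adaptors and DAP10. They were read from the GRCm38 annotation on the coding strand, with the codons of both tyrosines and both leucines of the ITAM, or of the tyrosine and methionine of the DAP10 motif, in capitals.
Tyrobp ITAM, exons 4 to 5, chr7:30415670-30417382, plus strand: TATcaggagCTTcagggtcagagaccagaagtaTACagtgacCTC
Fcer1g ITAM, exons 4 to 5, chr1:171229889-171230072, minus strand: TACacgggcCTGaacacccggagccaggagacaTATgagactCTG
Hcst motif, exon 4, chr7:30417812-30417841, minus strand: ggtagagtcTACatcaacATGcctggcaga
Fcer1g, which encodes the common gamma chain of Fc receptors, is the other short ITAM adaptor of myeloid cells and serves here for comparison. No 50-base window of these transcripts, or of the other genes apart from Inpp5d (0.572% of its windows), occurred in another annotated gene.

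Tyrobp was detected in the controls and listed at 0 in the E3–E12 diet mice. It had 182, 59.5 and 1494 normalized counts in controls, and 0 in each of the 3 E3–E12 diet libraries. The groups did not overlap, but the controls themselves spread widely, and control replicate 3 held most of the signal (mean 578 ± 795, SD, n = 3). Without that library the control mean was 121 normalized counts. The study's own lists of genes higher or lower in E3–E12 diet mice, curated by function from its DESeq2 results, do not name Tyrobp. They name none of the other genes chosen here either. The table does not give reads. From genes seen in a single library, 1 read was estimated in each library, which puts Tyrobp at about 235, 29.7 and 2790 reads in the 3 controls. A count of 0 allows up to 3 reads, or 3.41, 3.37 and 2.84 normalized counts in the E3–E12 diet libraries, so each control lay above that limit. This limit covers counting error only. The longest Tyrobp transcript has 597 bases. Among 110 protein-coding genes with such short transcripts (under 800 bases) and a mean of at least 100, between 0.909% and 4.55% were at 0 in a library, against 0.157% to 2.04% of longer ones. Tyrobp is itself among the 110 and adds to the share at 0 in each E3–E12 diet library. The part of length in the Tyrobp values was not tested.

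The genes were chosen on this pattern, so the following counts only describe it. In 39 of 26789 genes (0.146%), Tyrobp among them, every E3–E12 diet library was at 0 and every control was above 0, and in 29 genes (0.108%) the reverse held. Most of the 39 were low: the median of their means was 3.33, and 8 had a mean of at least 10. Tyrobp had the highest mean of the 39 (289). For the 29 the median was 4.84, and 7 had a mean of at least 10. Of 25 housekeeping genes, 0 were at 0 in any library. This list, like the check on length, was drawn up after the Tyrobp values had been seen, and its genes were not matched to Tyrobp in level or length.

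Of the neighbours of Tyrobp, Nfkbid was read in every library and Hcst was not. Nfkbid, an inhibitor protein of the NF-kappaB family and the only other gene within 10 kb of Tyrobp, had 781, 1045 and 1586 normalized counts in the controls and 1752, 1353 and 3255 in E3–E12 diet mice. The Nfkbid groups overlapped. E3–E12 diet replicate 2 was below control replicate 3, and E3–E12 diet replicates 1 and 3 were above every control. Hcst was close to the limit of the measurement, at 3.07, 0 and 36.6 in controls and 0, 0 and 3.68 in E3–E12 diet mice. Its groups overlapped, its mean of 7.22 was below the filter of 10, and it was not tested. Control replicate 3 was the highest library for both adaptor genes.

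Fcer1g was abundant in both groups. It had 2449, 2907 and 6808 normalized counts in controls and 3221, 5194 and 16534 in E3–E12 diet mice, and the groups overlapped (log2 fold change 0.84, SE 0.67, adjusted p = 0.999 by limma). With a library left out, the log2 fold change ran from 0.17 (without E3–E12 diet replicate 3) to 1.35 (without E3–E12 diet replicate 1). The study's own DESeq2 results list Fcer1g as higher in E3–E12 diet mice. Per kb of annotated exon, the Fcer1g level was 2802, 3326 and 7789 normalized counts in the controls, against 273, 89.1 and 2239 for Tyrobp. In each control the Fcer1g level per kb was thus above that of Tyrobp.

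Trem2, the receptor, was present in every library. It had 908, 5186 and 4133 normalized counts in controls and 918, 2850 and 4467 in E3–E12 diet mice. Both replicates numbered 1 were low, and the groups overlapped over nearly their whole range. Per kb of exon, the Trem2 level was 184, 1049 and 836 in controls and 186, 576 and 903 in E3–E12 diet mice, so Tyrobp was above Trem2 in control replicates 1 and 3 and below it in control replicate 2. The Trem2 exon length of 4946 bases includes 1 long transcript of 4784 bases, which lowers its value per kb. The order of Tyrobp and Trem2 in control replicates 1 and 3 is therefore given for this exon length only, and a shorter Trem2 length was not tried.

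**Figure D1:**
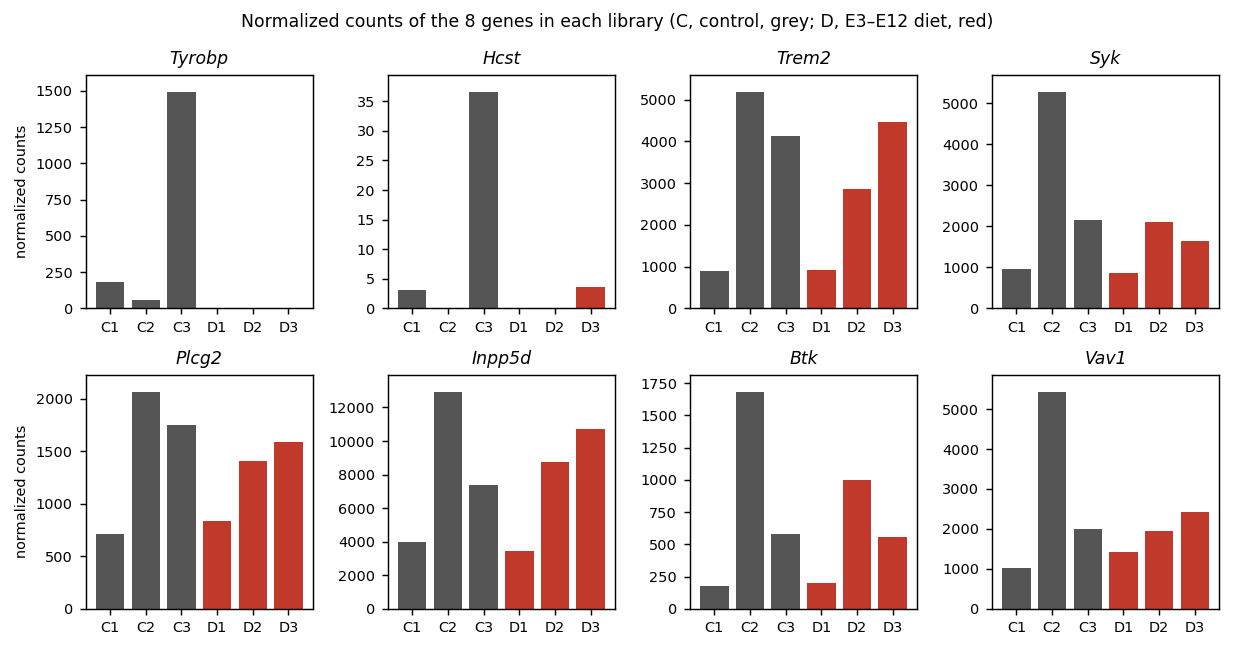
Normalized counts (vertical axis, from 0, with a separate scale for each gene) of the 8 genes in control replicates 1 to 3 (C1 to C3, grey) and E3–E12 diet replicates 1 to 3 (D1 to D3, red). Tyrobp is at 0 in D1 to D3, whereas Trem2 and the 5 signaling genes are lowest in C1 and D1 and highest in C2.

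Syk, the kinase that docks on the phosphorylated ITAM, had 971, 5279 and 2165 normalized counts in controls and 860, 2105 and 1648 in E3–E12 diet mice. Control replicate 2 was far above the other libraries, and the groups overlapped. Vav1, an exchange factor for Rac proteins, had 1019, 5424 and 1997 in controls and 1432, 1944 and 2432 in E3–E12 diet mice. Again control replicate 2 stood out. The remaining controls were at 1019 and 1997, and the E3–E12 diet libraries ran from 1432 to 2432.

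Plcg2, the lipase that cleaves PIP2 to raise calcium, had 707, 2061 and 1750 normalized counts in controls and 840, 1410 and 1583 in E3–E12 diet mice. It spread least of the 6 genes tested. Btk, a Tec family kinase that phosphorylates PLC-gamma 2, had 176, 1680 and 579 in controls and 203, 998 and 556 in E3–E12 diet mice, the widest spread of the 6. Inpp5d, the SHIP1 phosphatase on the inhibitory side of the pathway, was the highest of the 6 on the count scale, with 3964, 12912 and 7352 in controls and 3439, 8750 and 10733 in E3–E12 diet mice. Per kb of exon, its mean level of 1034 normalized counts over the 6 libraries was also above those of Vav1 (644), Trem2 (622), Plcg2 (324), Syk (232) and Btk (222). With these exon lengths Inpp5d was the highest of the 6 per kb in each library. The other neighbours in this order differed by less than their spread over libraries. The Trem2 exon length of 4946 bases includes a long transcript of 4784 bases, which lowers its value per kb. The place of Trem2 below Inpp5d and Vav1 is therefore given for this exon length only. A shorter Trem2 length was not tried. All 6 genes overlapped between the groups.

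Of the 6 genes tested, 0 passed the test between diets. The test was limma on log2(normalized count + 1), Benjamini-Hochberg adjusted over the 18007 genes whose mean reached 10. In all, 0 genes (0%) passed the threshold of 0.1 (smallest adjusted p = 0.999). The study itself used DESeq2 at the same threshold and listed genes in both directions. The 0 given here therefore holds only for limma on the normalized counts. Without adjustment, 268 genes (1.49%) and 0 of the 6 had p under 0.05. The log2 fold change of Trem2 was -0.25 (SE 0.76, 95% confidence interval -1.91 to 1.42). That of Syk was -0.63 (SE 0.65, interval -2.05 to 0.79), the furthest from 0, and -0.01 without control replicate 2. Plcg2 had -0.15 (SE 0.55), Inpp5d -0.07 (SE 0.63), Btk -0.20 (SE 0.84) and Vav1 -0.24 (SE 0.62). The limma adjusted p was 0.999 in each case, and exact two-sided permutation tests over libraries gave p between 0.4 and 0.9, where 0.1 is the smallest that 3 libraries against 3 allow. All 6 mean log2 levels were on the low side in E3–E12 diet mice, as were 45.6% of all genes tested, and the 6 genes share the same libraries. Inpp5d changed sign when each library was scaled to the same total (0.05) and under quantile normalization (0.13). The intervals leave room for a change of more than 2-fold in either direction in Trem2, so these libraries do not show that the genes were alike.

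**Figure D2:**
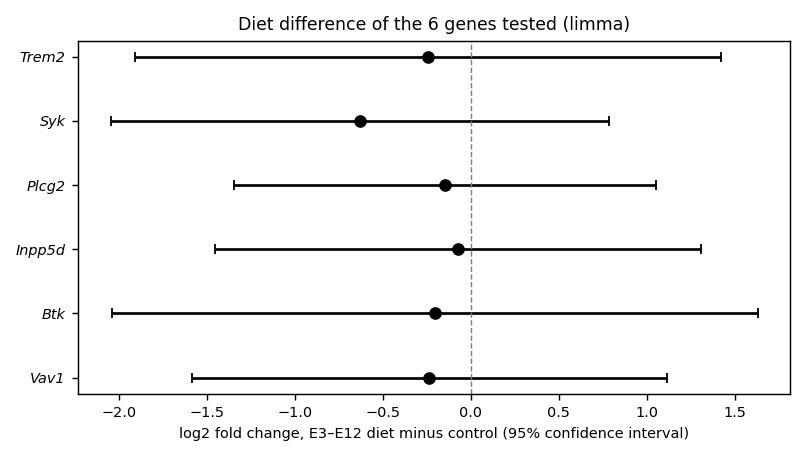
Log2 fold change (E3–E12 diet minus control, horizontal axis) of the 6 genes tested, with 95% confidence intervals from limma. Every interval spans 0, from -0.63 for Syk to -0.07 for Inpp5d at the points.

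The 6 genes varied with the microglia markers from library to library. For all 6, control replicate 1 and E3–E12 diet replicate 1 were the 2 lowest libraries and control replicate 2 was the highest. The total normalized counts were also lowest in control replicate 1 (9671119) and E3–E12 diet replicate 1 (9407141) and highest in control replicate 2 (17204618). The mean log2 level of 4 microglia markers (Csf1r, Cx3cr1, P2ry12 and Itgam) was 13.58, 15.65 and 14.82 in controls and 13.47, 14.59 and 15.44 in E3–E12 diet mice. Taken as a log2 ratio to these markers within each library, every one of the 6 genes spread less than its level did, with a median range of 1.13 against 2.46. The share of all genes with the same order of libraries, or with a smaller spread as a ratio, was not counted. Neither trait is thus shown to be particular to these genes.

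Within libraries the ratios of the 2 groups overlapped for each gene. Trem2 had a log2 ratio of -3.75, -3.31 and -2.80 in controls and -3.63, -3.11 and -3.31 in E3–E12 diet mice. The difference was -0.06 (exact permutation p = 0.9), and the E3–E12 diet libraries lay within the range of the controls. Syk had -3.65, -3.28 and -3.74 in controls and -3.72, -3.55 and -4.75 in E3–E12 diet mice. Its difference of -0.45 (exact permutation p = 0.5) came with 1 library, E3–E12 diet replicate 3, well below the others, and was -0.08 without it. The ratio of Inpp5d differed by 0.11 (exact permutation p = 0.7), and those of Plcg2, Btk and Vav1 by 0.04, -0.02 and -0.05.

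**Figure D3:**
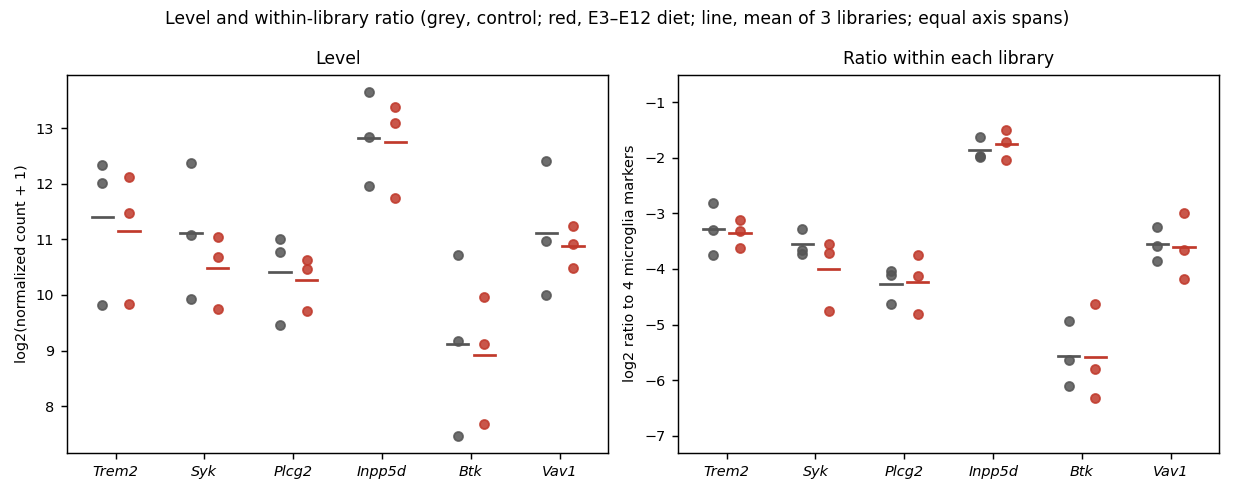
Left, log2(normalized count + 1) of the 6 genes tested in each library (points; line, mean of 3 libraries) in controls (grey) and E3–E12 diet mice (red); right, their log2 ratio to the mean of 4 microglia markers in the same library, with an axis of the same span. The points of both groups overlap for each gene, and the median range over libraries was 1.13 for the ratio and 2.46 for the level.

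The genes whose pattern over the 6 libraries was most like that of Trem2 were Cib1, a calcium- and integrin-binding protein, Gm49322, Pigh, an enzyme of GPI anchor synthesis, Hfe, which regulates iron uptake, and Man2b2, a lysosomal mannosidase, with Pearson correlations of log2 levels of 0.993, 0.992, 0.991, 0.990 and 0.989. The points are the same 6 libraries for every gene, and 431 of 18006 genes had a correlation over 0.9. Among the signaling genes, Plcg2 followed Trem2 most closely (0.982, rank 24 of 18006 genes), then Inpp5d (0.954), Btk (0.877), Syk (0.848) and Vav1 (0.825). Tyrobp, at 0 in 3 of the libraries, had a correlation of 0.12 with its receptor. These correlations are a description.

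Genes around the pathway were taken from 10 lists of 92 genes, of which 75 could be tested. In 35 the mean log2 level was higher and in 40 lower in E3–E12 diet mice, 0 passed the adjusted threshold, and the median log2 fold change was -0.04, against 0.09 over all genes tested. The list median was 0.08 with libraries scaled to the same total and ran from -0.42 without control replicate 1 to 0.27 without E3–E12 diet replicate 1. The groups did not overlap in 4 of the 75, where 5.9% of all genes tested did not: Cd300ld and Malt1 were higher and Yes1 and Skap2 lower in every E3–E12 diet library, where 2.99% of all genes did not overlap in the higher and 2.91% in the lower direction. For these 4 the limma adjusted p was 0.999.

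**Figure D4:**
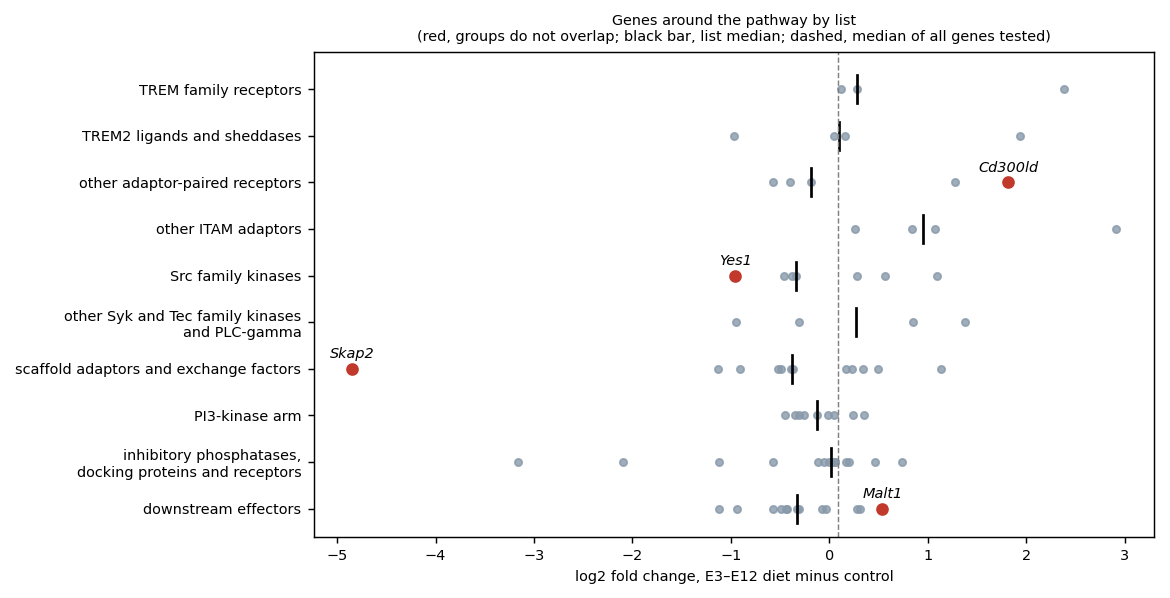
Log2 fold change (E3–E12 diet minus control, horizontal axis) of the 75 genes tested in 10 lists around the pathway, with the median of each list (black bar) and of all genes tested (dashed, 0.09). The 4 genes whose groups did not overlap are red: Cd300ld and Malt1 to the right, Yes1 and Skap2 to the left.

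On the receptor side, 3 of 5 further TREM family genes could be tested and none had groups that did not overlap. Treml2, the highest of them, had 172, 374 and 373 normalized counts in controls and 251, 277 and 624 in E3–E12 diet mice. Trem1, which amplifies inflammatory signals in myeloid cells, was at 0, 3.97 and 15.6 in controls, and 174, 7.86 and 6.63 in E3–E12 diet mice. The library at 174, E3–E12 diet replicate 1, was that with the highest choroid plexus markers, whose part in this value was not tested. Treml1, known from platelets, was low in all libraries (11.8 to 76.5).

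The 4 genes of TREM2 ligands and sheddases were all tested. Apoe, a lipoprotein that TREM2 binds, had 2827, 15671 and 4619 normalized counts in controls and 4049, 8820 and 7994 in E3–E12 diet mice, and followed the spread of the libraries. The sheddase Adam10 had the smallest p of the list, with 1085, 3484 and 1518 in controls and 562, 1070 and 1262 in E3–E12 diet mice (log2 fold change -0.97, SE 0.57, limma adjusted p = 0.999). Leaving out control replicate 2 gave -0.49, leaving out E3–E12 diet replicate 1 gave -0.62, and leaving out control replicate 1 gave -1.33. Its groups overlapped, and the related Adam17 had nearly equal means of 1687 ± 587 and 1695 ± 353 (SD, n = 3).

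Of 14 other receptors that pair with DAP12 or related adaptors, 5 passed the filter. Siglech, a microglial lectin that signals through DAP12, was the most abundant, with 3498, 14269 and 9793 normalized counts in controls and 2720, 9690 and 8083 in E3–E12 diet mice. Like Trem2 it was lowest in the replicates numbered 1, and the groups overlapped. Cd300ld, an activating receptor of the CD300 family, had 132, 29.8 and 134 in controls and 297, 174 and 465 in E3–E12 diet mice (log2 fold change 1.82, SE 0.79, and 1.11 without control replicate 2), 1 of the 4 genes without overlap.

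Besides Fcer1g, the ITAM adaptors Cd247, Cd3e and Cd79b were tested, all known from lymphocytes. Cd247 had 105, 14.2 and 70.7 normalized counts in controls and 104, 339 and 29.4 in E3–E12 diet mice. Cd3e had 0, 0 and 3.79 in controls and 26.0, 38.1 and 0.944 in E3–E12 diet mice, so it was close to the limit of the measurement in 4 libraries.

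Among 7 Src family kinases tested, Lyn, the most abundant, had 4186, 21555 and 7946 normalized counts in controls and 3093, 8607 and 10264 in E3–E12 diet mice. Fyn had 1064, 374 and 232 in controls and 689, 1068 and 407 in E3–E12 diet mice, and was not lowest in the replicates numbered 1 as the microglial genes were. Yes1 had 194, 330 and 263 in controls and 163, 148 and 95.3 in E3–E12 diet mice, with the groups just apart (log2 fold change -0.96, SE 0.62).

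In the list of other Syk and Tec family kinases and PLC-gamma, Plcg1 had 1538, 2646 and 1679 normalized counts in controls and 1705, 1384 and 1516 in E3–E12 diet mice, and Tec had 395, 1405 and 639 against 160, 867 and 359. Both overlapped. Zap70, the T-cell relative of Syk, was below the filter.

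Of 12 scaffold adaptors and exchange factors tested, Fyb and Blnk were the most abundant. Fyb, an adaptor of integrin signaling, had 5216, 15781 and 8047 normalized counts in controls and 2744, 8282 and 10525 in E3–E12 diet mice. Blnk, the scaffold that brings Btk and PLC-gamma 2 to Syk, had 3237, 7465 and 5087 in controls and 3408, 5991 and 8512 in E3–E12 diet mice. Both overlapped over most of their range.

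Skap2, a partner of Fyb in integrin signaling, was the gene of the lists with the largest difference. It had 56.6, 144 and 30.9 normalized counts in controls and 10.2, 0 and 0 in E3–E12 diet mice (log2 fold change -4.85, SE 1.56, limma adjusted p = 0.999 over all genes). Its level was low, and the size of its fold change depends on the pseudocount of 1 (-5.52 with 0.5 and -2.57 with 10). The study's own DESeq2 results list Skap2 as lower in E3–E12 diet mice.

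The PI3-kinase arm had the narrowest range of the 10 lists, with log2 fold changes of 9 genes between -0.45 and 0.35. Pik3r5, a regulatory subunit of the PI3-kinase of myeloid cells, had 1540, 6844 and 4331 normalized counts in controls and 1273, 3788 and 4593 in E3–E12 diet mice. Pik3r1, the common regulatory subunit, had 2315, 6688 and 3511 against 1778, 3319 and 3623. Both genes overlapped.

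Of 14 inhibitory phosphatases, docking proteins and receptors tested, 7 had a higher and 7 a lower mean log2 level in E3–E12 diet mice. Sirpa, the receptor for the CD47 signal, was the highest, with 7526, 37784 and 13044 normalized counts in controls and 6992, 20716 and 29074 in E3–E12 diet mice.

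Among 13 downstream effectors, 3 had a higher and 10 a lower mean log2 level. Rac1, the small GTPase of actin remodelling, had 6057, 14706 and 11556 normalized counts in controls and 4935, 9569 and 20243 in E3–E12 diet mice. Itpr2, a calcium channel of the endoplasmic reticulum opened by IP3, had 5028, 3611 and 3747 against 2665, 4351 and 2957. Malt1, a protease of the NF-kappaB arm, had 551, 329 and 585 in controls and 640, 643 and 792 in E3–E12 diet mice (log2 fold change 0.54, SE 0.49, and 0.28 without control replicate 2).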

How the data were processed

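Bulk RNA was measured in 6 libraries, 3 per diet, with replicate numbers from the sample titles. The authors deposited 1 table of normalized counts per gene (a signal scaled between libraries, not raw reads), whose name mentions surrogate variables. The submitters' processing notes name FastQC, STAR, featureCounts, DESeq2 and GRCm38, with no versions, and whether a surrogate-variable adjustment entered the values is not given in the sources used here. Whole reads could not be recovered: 28.0% to 43.6% of a library's values came within 0.1 of a whole number of reads, with the read value taken from genes above 0 in 1 library and its acceptance rule set after a first scan of the values, so depths of 8280000 to 22200000 reads are approximate, and limits from a count of 0 cover counting error only.

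Diets were compared on log2(normalized count + 1) by limma 3.58.1 in R 4.3.3, two-sided, Benjamini-Hochberg adjusted over 18007 genes whose mean reached 10, at the study's threshold of 0.1. In all, 2 limma fits of this design were run in turn. The first, without a mean-variance trend, gave 327 genes with an unadjusted p under 0.05 (smallest adjusted p = 0.225), and the second, with the trend, gave 268 (0.999). The trend was made the main fit after both counts had been seen, because it is the setting of an earlier analysis of these data. Single genes and within-library ratios were compared with exact permutation tests in SciPy 1.17.1. The labels do not say more of the replicates than a number, and the study's methods give 1 litter for each.

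The 8 genes and all lists were chosen with earlier results of these data known, and the lists of housekeeping genes and the limits in reads were added after the values were seen. Named genes were the 8 genes, from each list the 2 of highest mean, the one of smallest p and any without overlap, genes within 10 kb of Tyrobp and the 5 most correlated with Trem2. Gene positions, transcripts and motif sequences came from the GRCm38 annotation. Alternatives covered the pseudocount, filter, scaling, library weights, trend, replicate block and each library left out. Some genes of the lists are not reported here, and the marker sums and the reference of the within-library ratios were computed without them, a change made after the values were seen.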

Additional observations from a re-analysis of the deposited data

How the results depend on the processing

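For the log2 fold changes of the 6 genes tested, 90 alternative values were computed, of which 0 passed the adjusted threshold (smallest adjusted p = 0.869), 74 kept the sign and 16 did not. Of 42 alternative values of their ratios to markers, 28 kept the sign and 14 did not. Outside the fits that left out a library, the sign changed for Inpp5d with libraries scaled to the same total (0.047), quantile normalization (0.13) and array weights (0.24), for Btk (0.27) and Vav1 (0.11) with array weights, and, with Csf1r alone as the reference, for the ratios of Trem2 (0.033), Btk (0.075) and Vav1 (0.043). With each library left out in turn, the log2 fold change ran from -1.03 to 0.41 for Trem2, -1.23 to -0.01 for Syk, -0.62 to 0.15 for Plcg2, -0.51 to 0.42 for Inpp5d, -1.03 to 0.59 for Btk and -0.80 to 0.41 for Vav1 (positive without control replicate 2 for all of these but Syk, without E3–E12 diet replicate 1 for Trem2, Plcg2, Inpp5d and Btk, and without control replicate 3 for Trem2 and Plcg2), the ratio to markers from -0.29 to 0.18 for Trem2, -0.68 to -0.08 for Syk, -0.20 to 0.32 for Plcg2, -0.020 to 0.26 for Inpp5d, -0.50 to 0.35 for Btk and -0.37 to 0.24 for Vav1, and the control mean of Tyrobp from 121 to 838. With array weights the log2 fold change was 0.40 for Fcer1g, -0.26 for Syk, -0.54 for Adam10, 0.29 for Malt1 and 1.12 for Cd300ld. Scaling to the same total moved the median log2 fold change of all genes from 0.09 to 0.20.

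The number of genes past the adjusted threshold was 0 in every fit but 3. With array weights it was 4 (Mynn, Rpl10a-ps1, Gm26527 and Tyrobp). These weights were 0.206 for control replicate 2 and 5.20 for control replicate 3, which held most of the Tyrobp signal. Because the Tyrobp contrast chose the genes, its place among the 4 is not a test result. The number was 1 without E3–E12 diet replicate 2 (Mef2c) or replicate 3 (Bicra), a range of 0 to 1 over libraries left out. These genes were named after their values were seen. The 268 genes with an unadjusted p under 0.05 became 143 with a mean of at least 100 and 1396 with array weights. With a library left out they became 187 to 970, highest without control replicate 1. Limma without the trend, the fit run first, gave 327, and the trend was chosen after both counts had been seen. The cause of these differences was not tested. The 1062 genes without overlap became 639 of 10480 with a mean of at least 100, and 2257 to 3167 with a library left out (added after seeing the data), where fewer libraries have to be apart. Same-numbered libraries of the 2 diets deviated together with correlations of 0.26, 0.03 and 0.14, not all over 0.1, so the numbers were not taken to pair the libraries. With the replicate block 478 genes had an unadjusted p under 0.05 and 0 passed the adjusted threshold (smallest adjusted p = 0.979). DESeq2 and edgeR were not run because whole reads could not be recovered.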
